A study of Mus musculus with 6 samples.

Results

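The barrier lipid and fatty acid synthesis genes are 38 mouse genes, chosen by name, that make, lengthen, desaturate, export or break down the fatty acids, ceramides and neutral lipids of a stratified epithelium. Of the 38 genes, 36 were carried by 61 probes of the array, which names 28104 genes in all. Cers3, the ceramide synthase for very long acyl chains, and Pnpla1, which transfers linoleate in acylceramide synthesis, were carried by no probe under those names. Of the 36 genes, 34 were tested, through 59 probes. A gene was tested where 1 group or both had Cy5 signal well above background on every one of its 3 arrays. Elovl3, an elongase of saturated chains, and Alox15, a lipoxygenase, were not.

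RNA from the esophagus of adult C57BL/6J mice was compared between 3 arrays labelled wild type and 3 labelled knockout, whose genotype is given as K5Cre;Pax9 loxp/loxp. Pax9 is a paired-box transcription factor, and the keratin 5 promoter that drives the Cre is active in basal cells of squamous epithelia, so that cells outside that lineage would keep the gene. The labels give no Cre or floxed allele for the wild type mice, and do not say whether animals were pooled. They name the epithelium as the source, but the extract was of whole tissue by its protocol. Esophagus RNA was labelled with Cy5 and hybridised against the Universal Mouse Reference RNA, from cultured cell lines, labelled with Cy3, with no dye swap. Values are log2 ratios of esophagus over reference, and a difference is the knockout mean minus the wild type mean on that scale. A ratio says how a gene stands against the same gene in the reference, so ratios of different genes are not levels of one against another.

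In the outer layers of stratified epithelia, lamellar bodies release glucosylceramides, sphingomyelin and other lipids that enzymes outside the cell turn into the ceramides, fatty acids and sterols of the permeability barrier. Ceramides need a sphingoid base, which serine palmitoyltransferase starts, and an acyl chain, which fatty acid synthase builds and the elongases lengthen. In skin, linoleate bound to very long ceramides is oxidized by lipoxygenases before it is fixed to the cornified envelope, and loss of several of these genes gives ichthyosis. The esophageal lining of the mouse is also cornified.

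Fads2, the delta-6 desaturase that opens the synthesis of long polyunsaturated fatty acids, and Lipn, a lipase of the uppermost epidermal layers, passed the test in opposite directions. The probes behind these values are shown because each crosses an intron, which ties it to spliced RNA. The Fads2 probe lies on the minus strand within a span of 431 bases at chr19:10138750-10139180 (mm9). The Lipn probe lies on the plus strand within a span of 731 bases at chr19:34143177-34143907 (mm9). Both have 60 bases and are written 5′ to 3′ in lower case.
Fads2 probe: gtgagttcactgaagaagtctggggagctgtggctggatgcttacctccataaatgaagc
Lipn probe: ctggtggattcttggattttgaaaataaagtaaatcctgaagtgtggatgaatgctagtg

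The 250 bases upstream of the Fads2 start site are shown because the gene is the member with a RefSeq promoter here that was higher on the arrays labelled knockout. They lie on the minus strand at chr19:10101504-10101753 (RefSeq, GRCm38.p6), and the capitals mark the GC box, GGGCGG, searched on both strands.
Fads2 upstream: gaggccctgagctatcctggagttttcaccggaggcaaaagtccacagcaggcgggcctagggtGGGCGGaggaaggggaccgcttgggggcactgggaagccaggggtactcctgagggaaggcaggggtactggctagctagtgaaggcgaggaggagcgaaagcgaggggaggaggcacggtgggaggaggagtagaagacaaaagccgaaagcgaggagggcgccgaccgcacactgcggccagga
A GC box was present in 32.7% of 32851 RefSeq promoter windows of this length and in 12 of the 26 members matched by symbol. The core of the sterol response element, written TCACNCCAC and searched on both strands, was in 1.05% of all windows and in 0 of the 26. A match describes letters only.

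Signal was well above background in Cy5 for 67.3% to 77.3% of probes on the wild type arrays and for 71.8% to 76.1% on the knockout arrays. The median background-subtracted Cy5 signal was 56.0 to 159 and 97.5 to 133. All wild type arrays lay on slide 1 and were read in scan 1, and all knockout arrays lay on slide 2 and were read in scan 2, so slide, scan and genotype cannot be told apart in any result here. The deleted gene, Pax9, showed no fall. It read 6.28, 6.13 and 5.70 on the wild type arrays and 6.81, 6.78 and 6.72 on the knockout arrays, a difference of 0.73 (SE 0.18, limma adjusted p = 0.071). The target gene thus goes against the labels unless its probe lies outside the deleted exons, which was not tested. Groups are named by label throughout, and every direction rests on the labels.

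Among the 34 tested members, Fads1 and Fads2 were higher on the arrays labelled knockout, and Scd1 and Lipn were lower, in limma with Benjamini-Hochberg adjustment over all tested probes at 0.05. In RNA of a whole tissue, fewer cells of a type and less RNA per cell cannot be told apart. These 4 members are 11.8% of the 34, beside 4.84% of 20820 genes tested over the whole array. By direction, 2 members were higher, beside 2.83% of all genes, and 2 were lower, beside 2.00%. Of the lower members, Lipn entered the test only through its signal on the wild type arrays. At an unadjusted p under 0.05 stood 9 members, or 26.5%, beside 24.7% of all genes, so on that measure the members were near the background. The groups did not overlap for 11 members, or 32.4%, beside 32.2% of all genes, which is again the background. Of those 11, 3 were higher (17.1% of all genes) and 8 were lower (15.1% of all genes). The member differences had a median of -0.23, beside 0.01 over all genes, and 27 of the 34, or 79.4%, lay below 0, beside 48.5% of all genes. With arrays centred on their medians in place of loess, the member median turned to 0.04, beside a median of 0.11 over all genes, and 12 of the 34 members, or 35.3%, lay below 0, beside 40.0% of all genes. With replicate number as a block, 5 members passed, Soat1 being added, beside 8.20% of all genes.

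The number of members past the threshold changed with some settings and not with others. It stayed at 4 with a trend in eBayes (beside 6.53% of all genes) and with no filter on dim probes (beside 4.44%), and was 5 as a mean over the probes of a gene (beside 5.87%). It was 3 in the deposited log ratios (2 higher and 1 lower, beside 2.74% of all genes), 3 in the series matrix values (beside 2.69%) and 3 among probes well above background on all 6 arrays (beside 3.21%). It was 2 with median centring (1 higher and 1 lower, beside 0.576%), 7 with array weights (beside 11.9%) and 15 with Cy5 alone (4 higher and 11 lower, beside 28.8%). Fads2 passed in each of these settings. The 11 lower with Cy5 alone were Abca12, Acaca, Acer1, Alox12, Dgat2, Lipn, Scd1, Scd2, Sdr9c7, Soat1 and Sptlc1. With 1 array left out, limma called 0 members without wild type array 1 (beside 0.262% of all genes), wild type array 2 (0.721%) or knockout array 3 (0.163%), where 11, 10 and 8 members had an unadjusted p under 0.05. It called 1 member, Fads1, without knockout array 1 (beside 1.27%) or knockout array 2 (3.24%). Without wild type array 3 it called 4 (beside 3.95%), with Abca12 in place of Scd1.

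**Figure D1:**
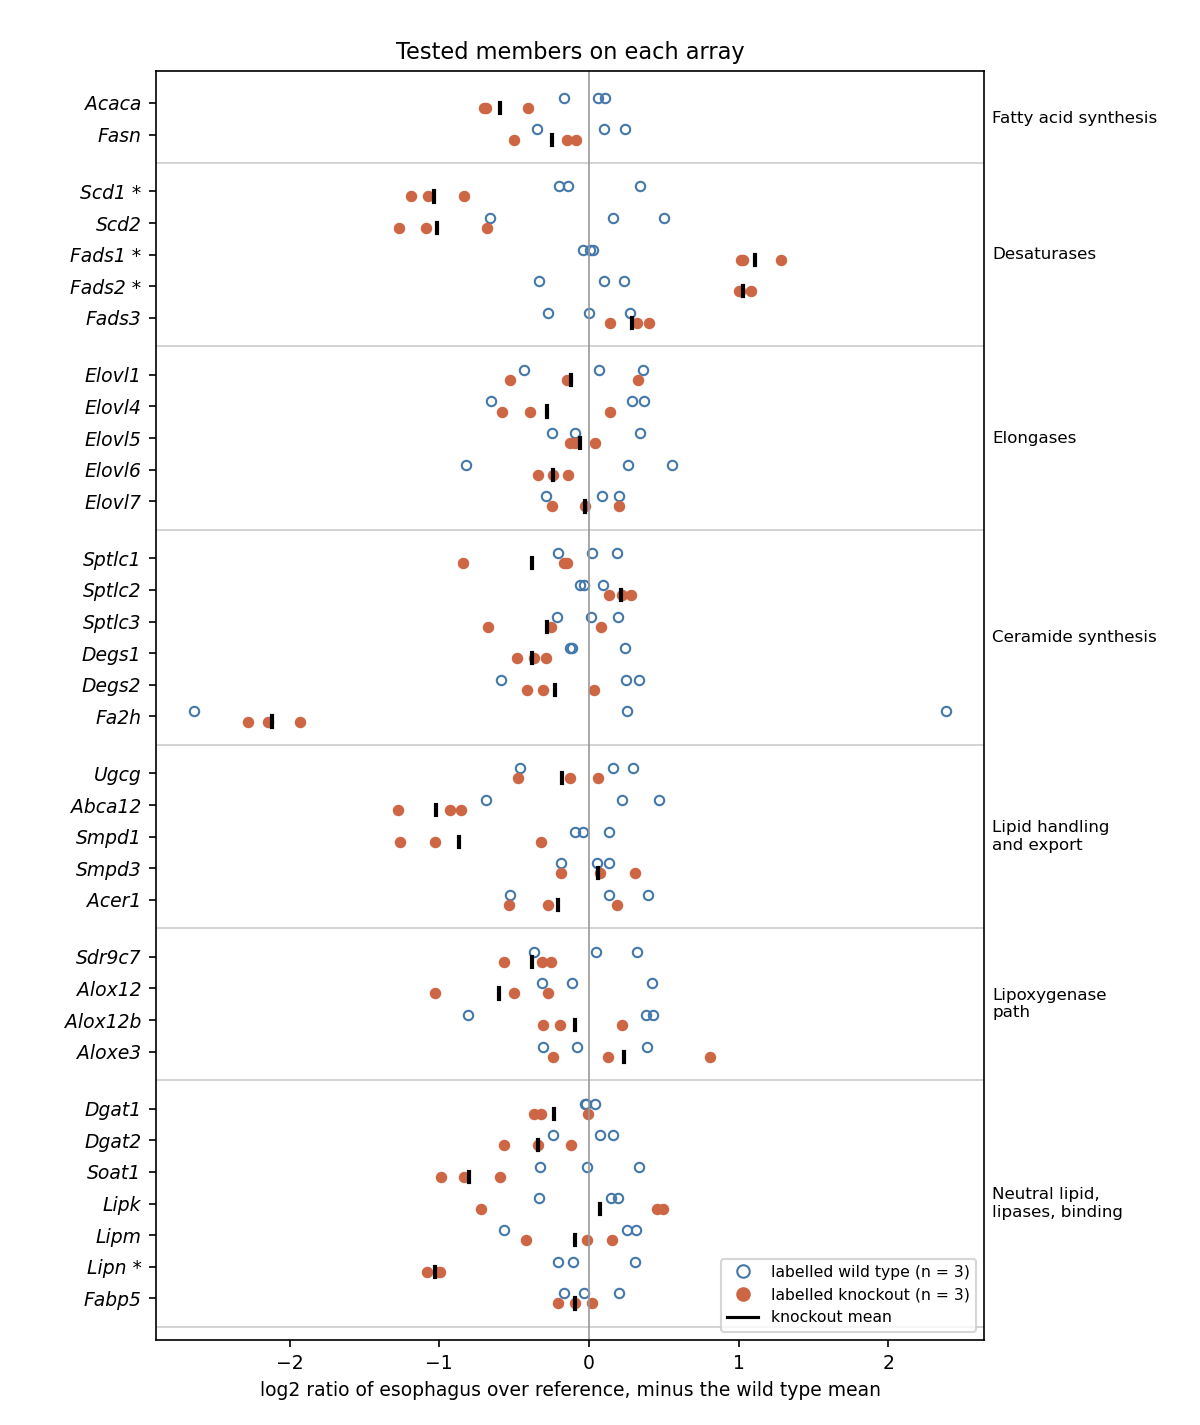
Log2 ratio of esophagus over reference for each of the 34 tested members on each of the 6 arrays, minus the mean of the wild type arrays; open points are wild type arrays, filled points knockout arrays, the black bar the knockout mean, and an asterisk an adjusted p under 0.05. Fads1 and Fads2 stand to the right with no overlap, 27 of 34 knockout means lie left of 0, and the wild type arrays of Fa2h spread over more than the whole width of any other member.

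The desaturases held 3 of the 4 members that passed, out of 5 tested. Fads1 is the delta-5 desaturase, which acts after Fads2 on the way to arachidonic acid. Its log2 ratio was -3.21, -3.25 and -3.19 on wild type arrays 1, 2 and 3 and -2.19, -1.93 and -2.20 on knockout arrays 1, 2 and 3. All knockout arrays lay above all wild type arrays, and both groups lay below the reference. The difference was 1.11 (SE 0.14, adjusted p = 0.0154, limma), from -3.22 ± 0.04 to -2.11 ± 0.15 (SD, n = 3 each). The rise was in the esophagus channel: background-subtracted Cy5 was 217, 227 and 799 against 857, 1622 and 1399. Cy5 alone gave a difference of 1.24 and the reference channel -0.01.

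Fads2 read -1.32, -1.45 and -1.88 on the wild type arrays and -0.54, -0.47 and -0.55 on the knockout arrays. The knockout arrays lay close together and above every wild type array. The difference was 1.03 (SE 0.18, adjusted p = 0.0309, limma), and it was 1.29 with Cy5 alone. Fads3, the third gene of the cluster, whose product acts on sphingoid bases, read -2.54, -2.81 and -3.08 against -2.41, -2.67 and -2.49. Its groups overlapped, with a difference of 0.29 (95% interval -0.14 to 0.72, limma adjusted p = 0.388), and a further probe gave -0.05. In RefSeq order Fads3, Fads2 and Fads1 are neighbours on chromosome 19. Their probes share no run of more than 6 bases with each other; matches of a probe to the other genes' transcripts were not tested. Both calls weakened when an array was left out. Fads1 no longer passed without wild type array 1, wild type array 2 or knockout array 3, and Fads2 passed only without wild type array 3, with adjusted p up to 0.0803 and 0.138 for single arrays left out.

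Scd1 and Scd2 are delta-9 desaturases, which turn saturated into monounsaturated fatty acids. Scd1 read -0.35, -0.28 and 0.19 on the wild type arrays and -0.98, -1.22 and -1.33 on the knockout arrays. The groups did not overlap, and wild type array 3 was the highest. The difference was -1.03 (SE 0.20, adjusted p = 0.0379, limma), from -0.14 ± 0.30 to -1.18 ± 0.18 (SD, n = 3 each). Cy5 signals were 1076, 1260 and 4618 against 915, 1223 and 998. Scd1 did not pass without any one of the 6 arrays (adjusted p 0.0540 or more), nor from the deposited log ratios, where the difference was -0.68 (adjusted p = 0.196). Scd2 read -1.01, -1.84 and -0.67 against -1.85, -2.26 and -2.45. Its groups were separated by a narrow gap, and the difference of -1.01 (SE 0.32) missed the threshold (limma adjusted p = 0.116).

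Scd3, a further delta-9 desaturase that is not among the 38 genes, lies beside Scd2 in RefSeq order. It read 0.56, 0.30 and 0.39 on the wild type arrays and -0.84, -1.06 and -0.81 on the knockout arrays. Its difference was -1.32 (SE 0.15, adjusted p = 0.0112, limma). Scd4, between Scd2 and Scd1 in that order, differed by -0.20 with overlapping groups (limma adjusted p = 0.439). Its probe was well above background on only 1 knockout array, and Scd4 is named after its value was seen. The probes of Scd1, Scd2 and Scd3 share at most 6 bases in a row. The Fads genes that passed were thus higher and the Scd genes that passed lower, on the same chromosome and the same arrays.

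**Figure D2:**
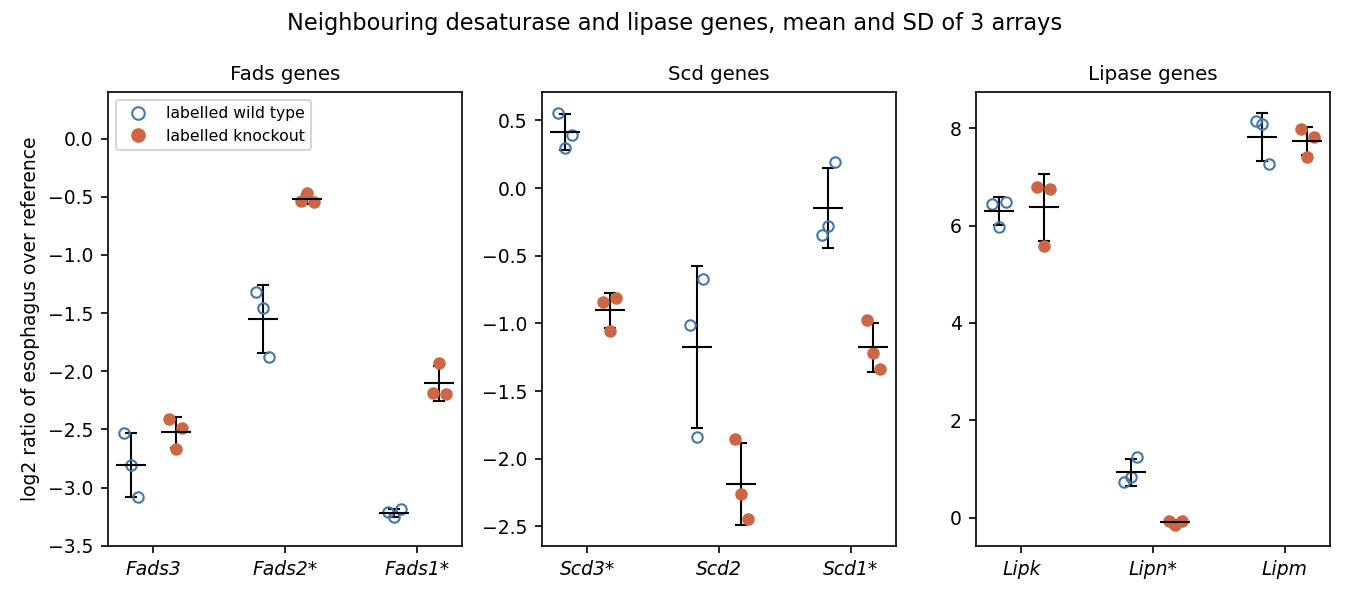
Log2 ratios of esophagus over reference on each array for Fads, Scd and lipase genes that lie near each other on chromosome 19. The mean and SD are of 3 arrays per group, and an asterisk marks an adjusted p under 0.05. Scd4, which lies between Scd2 and Scd1, is not drawn. Fads1 and Fads2 are higher on the knockout arrays, Scd1 and Scd3 are lower, and Lipn is lower between Lipk and Lipm, whose groups overlap.

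For fatty acid synthesis, neither member passed. Acaca encodes acetyl-CoA carboxylase 1, which makes the malonyl-CoA that fatty acid synthase uses. It read 1.46, 1.51 and 1.23 on the wild type arrays and 1.00, 0.70 and 0.71 on the knockout arrays, with no overlap. The difference was -0.60 (SE 0.16) with an adjusted p of 0.0806 in limma. Of its 5 tested probes 4 were below 0, at -0.60 to -0.39, and 1 was at 0.39. The reference channel of the Acaca probe also differed, by -0.67, and Cy5 alone gave -1.20. Fasn, fatty acid synthase itself, read 0.60, 1.19 and 1.05 against 0.80, 0.86 and 0.45, with overlapping groups. Its difference was -0.24 (95% interval -0.73 to 0.24, limma adjusted p = 0.514), and a further probe gave 0.29.

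The elongases add carbon pairs to fatty acyl chains, and 0 of 5 passed in limma, also at an unadjusted p under 0.05. Elovl4 makes the ultra long chains of acylceramides. It read 7.78, 7.86 and 6.84 on the wild type arrays and 7.63, 6.92 and 7.10 on the knockout arrays. The groups overlapped, and the difference was -0.28 (95% interval -1.03 to 0.48). Elovl6, which lengthens palmitate, read 2.46, 3.84 and 3.54 against 2.94, 3.03 and 3.14. The spread among its wild type arrays was wider than the difference of -0.24 (95% interval -1.04 to 0.57). Elovl1, which lengthens saturated chains for sphingolipids, read 2.32, 2.82 and 3.12 against 3.08, 2.22 and 2.60, a difference of -0.12 (95% interval -0.79 to 0.55). Elovl5, which lengthens polyunsaturated chains between the Fads2 and Fads1 steps, had a difference of -0.06 (95% interval -0.50 to 0.38), and Elovl7 one of -0.02 (95% interval -0.48 to 0.43). Elovl5 thus showed no detectable difference where both of its neighbours in that pathway rose, and a difference between Elovl5 and those genes was not tested. Elovl3 was well above background on 1 of 6 arrays, with Cy5 of 2.43 to 16.4.

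For ceramide synthesis, 0 of 6 tested members passed in limma, and none had an unadjusted p under 0.05. Serine palmitoyltransferase is built of Sptlc1 with Sptlc2 or Sptlc3. Sptlc1 had a difference of -0.38 (95% interval -0.92 to 0.16) and Sptlc3 one of -0.28 (95% interval -0.81 to 0.25). For Sptlc2 the knockout arrays lay above the wild type arrays, at 1.62 to 1.77 against 1.43 to 1.58, but the difference of 0.21 missed the threshold (limma adjusted p = 0.387). Its other 3 probes gave -0.70 to -0.14, so its probes disagree in sign. Degs1, which sets the double bond of ceramide, read 1.74, 1.75 and 2.10 on the wild type arrays and 1.58, 1.38 and 1.50 on the knockout arrays. The groups did not overlap, and the difference was -0.38 (SE 0.16, limma adjusted p = 0.214). Degs2, which adds the hydroxyl of phytoceramides, differed by -0.23 (95% interval -0.87 to 0.42).

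Fa2h, the fatty acid 2-hydroxylase, had the largest SE of the 34 members. It read -0.01, 5.02 and 2.89 on the wild type arrays and 0.49, 0.71 and 0.35 on the knockout arrays. Wild type array 2 was high, wild type array 1 was below every knockout array, and Cy5 was 12.4, 1200 and 521 against 74.4, 118 and 72.3. On wild type array 1 the probe was not well above background. The difference of -2.12 (SE 1.10, 95% interval -4.71 to 0.48) did not pass (limma adjusted p = 0.298), and it ranged from -3.44 to -0.92 when arrays were left out. The mean log2 ratio of the skeletal muscle markers was 3.25, 5.55 and 3.25 on wild type arrays 1, 2 and 3 and 4.90, 5.69 and 4.74 on the knockout arrays. A part of muscle content in the Fa2h values was not tested.

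Lipid handling and export held 2 of the 9 members with an unadjusted p under 0.05, and 0 of 5 that passed after adjustment in limma. Abca12 loads glucosylceramides into lamellar bodies, and its loss causes harlequin ichthyosis. It read 8.60, 8.85 and 7.69 on the wild type arrays and 7.52, 7.10 and 7.45 on the knockout arrays. The gap between the groups was set by wild type array 3. The difference was -1.02 (SE 0.31, limma adjusted p = 0.108), and its 3 probes gave -1.12, -1.02 and -0.84. Without wild type array 3 it passed, at -1.36 (adjusted p = 0.0310), as it did as a mean over its probes (-0.99, adjusted p = 0.0172). From the deposited log ratios the difference was -0.22 (adjusted p = 0.885).

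Smpd1, acid sphingomyelinase, which makes ceramide from sphingomyelin, read 3.21, 3.16 and 3.38 against 2.93, 1.99 and 2.22. The groups did not overlap, and knockout array 1 stood nearer to the wild type arrays than to the other knockout arrays. The difference was -0.87 (SE 0.25, limma adjusted p = 0.0991). Smpd3, a neutral sphingomyelinase, differed by 0.06 (95% interval -0.36 to 0.49), but its other probes gave -0.42 and -0.49. Ugcg, the glucosylceramide synthase, differed by -0.18 (95% interval -0.76 to 0.40). Acer1, an alkaline ceramidase of upper epidermal layers, differed by -0.21 (95% interval -0.89 to 0.48). For Acer1, Cy5 alone gave -1.10 (limma adjusted p = 0.00515), and the reference channel also differed, by -0.71.

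For the acylceramide and lipoxygenase genes 0 of 4 passed in limma, also at an unadjusted p under 0.05. Alox12, the platelet-type 12-lipoxygenase, read 5.48, 4.74 and 4.94 on the wild type arrays and 4.78, 4.03 and 4.55 on the knockout arrays. The groups overlapped, and the difference was -0.60 (SE 0.27, limma adjusted p = 0.231), with a further probe at -0.43. For Alox12, Cy5 alone gave -1.43 (limma adjusted p = 0.0420) and the reference channel -0.76, while Cy5 alone gave -0.61 for the further probe. Alox12b and Aloxe3 encode the 12R-lipoxygenase and the epoxyalcohol-forming lipoxygenase that act in turn on linoleoyl acylceramide. Alox12b differed by -0.09 (95% interval -0.92 to 0.73) and Aloxe3 by 0.23 (95% interval -0.48 to 0.95). Sdr9c7, the dehydrogenase after them, read 5.34, 5.62 and 4.93 against 5.04, 4.73 and 4.98, with overlapping groups and a difference of -0.38 (95% interval -0.87 to 0.11). A further Sdr9c7 probe gave 0.09. With Cy5 alone the first Sdr9c7 probe gave -0.85 (limma adjusted p = 0.0306) and the further one 0.03. Alox12b turned to 1.05 with Cy5 alone (adjusted p = 0.0197), and its reference channel differed by 1.07. Alox15 had Cy5 of 467 on wild type array 1 and of -4.80 to 24.7 on the other 5 arrays.

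Of the neutral lipid enzymes, lipases and fatty acid binding genes, 1 of 7 passed. Lipn read 0.73, 0.83 and 1.24 on the wild type arrays and -0.06, -0.15 and -0.07 on the knockout arrays. The groups did not overlap. On all 3 knockout arrays its probe was not well above background, with Cy5 of -0.30, 0.78 and -1.43 beside 26.5, 34.3 and 84.2, so only a bound can be given. Lipn was at least 1.69-fold lower (adjusted p = 0.0287, limma). It entered the test through the wild type arrays alone, the group where it was high, so its call gives no independent support. Set against a detection floor on each knockout array, the wild type mean gave a bound of 1.70-fold. The floor is the dimmest signal still called well above background, or the probe's own where higher. The printed bound is the smaller of that value and the smallest difference over the settings run, here the 1.69-fold of Cy5 alone. The adjusted p belongs to the reported difference of -1.03. Without a dye swap the bound is open to dye bias. Lipn passed in 1 of the 6 fits that left out a single array, the one without wild type array 3. Lipk and Lipm, lipases on either side of Lipn, differed by 0.08 (95% interval -0.74 to 0.90) and -0.09 (95% interval -0.75 to 0.56). A difference between the 3 lipases was not tested.

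Soat1, which esterifies cholesterol, read -2.46, -2.80 and -3.12 against -3.39, -3.78 and -3.62. All knockout arrays lay below all wild type arrays, and the difference was -0.80 (SE 0.21, limma adjusted p = 0.0768). With replicate number as a block it passed (adjusted p = 0.0434). Its other probes gave -0.35 and -0.17. Dgat2, which makes triacylglycerol, read 5.84, 6.16 and 6.24 on the wild type arrays and 5.96, 5.52 and 5.74 on the knockout arrays. The groups overlapped, with a difference of -0.34 (95% interval -0.77 to 0.09). Dgat1, a second enzyme for the same step, differed by -0.23 (95% interval -0.59 to 0.13). Fabp5, the fatty acid binding protein of keratinocytes, differed by -0.09 (95% interval -0.46 to 0.28).

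Against the reference, 25 of the 34 tested members were higher in the esophagus on all 6 arrays, and 6 were lower on all 6 (Scd2, Fads1, Fads2, Fads3, Dgat1 and Soat1). By more than 3 on the log2 scale, 15 were higher on all 6 arrays. These were Elovl4, Elovl7, Sptlc3, Degs2, Abca12, Smpd3, Acer1, Sdr9c7, Alox12, Alox12b, Aloxe3, Dgat2, Lipk, Lipm and Fabp5. All 3 tested lipoxygenases and both of the called Fads genes thus stood on opposite sides of the reference in both groups. Of the 15 members with several tested probes, 7 had all of them on 1 side of 0: Abca12, Alox12, Alox12b, Dgat1, Dgat2, Soat1 and Ugcg.

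**Figure D3:**
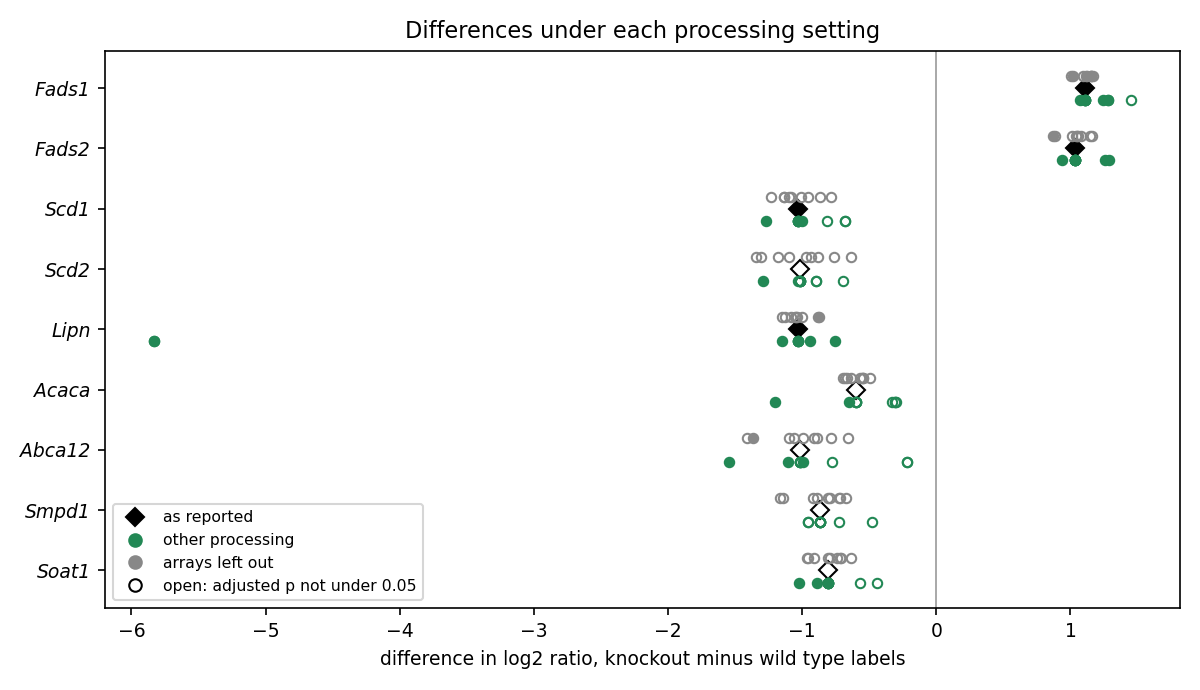
Difference in log2 ratio, knockout minus wild type labels, for the 9 members with an unadjusted p under 0.05, as reported (diamonds), under other processing (green) and with arrays left out (grey); open symbols mark an adjusted p that is not under 0.05. No difference changed sign; Fads2 passed in every other processing setting run and Fads1 in all but median centring, and Lipn lies at -5.83 in the deposited log ratios, where its knockout arrays are near background.

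The same test was read for 135 other genes of lipid metabolism, in 5 lists, of which 127 were tested. Of these, 10 passed, or 7.87%, 1 higher and 9 lower, with a median difference of -0.10. Over all genes 4.84% passed, 2.83% higher and 2.00% lower, with a median of 0.01, and these values also stand beside each list below. With 1 array left out, limma called 0 of the 127 without wild type array 1 (beside 0.262% of all genes) or knockout array 3 (0.163%). In each of these fits 34 had an unadjusted p under 0.05. It called 1 without wild type array 2 (beside 0.721%) and 2 without knockout array 1 (1.27%). The count was 8 without wild type array 3 (beside 3.95%) and 9 without knockout array 2 (3.24%). Of the sphingolipid genes 1 of 29 was higher and 2 were lower, with a median of -0.14. Cers4, a ceramide synthase, read -0.54, -0.68 and -0.85 on the wild type arrays and 0.29, 0.28 and 0.27 on the knockout arrays. It rose by 0.97 (SE 0.14, adjusted p = 0.0212, limma). Sphk1, which phosphorylates sphingosine, fell by 1.62 (adjusted p = 0.0178), and Sgpp1, which reverses that step, fell by 1.22 (adjusted p = 0.0293). Sphk1 read 1.08, 1.39 and 0.58 against -0.52, -0.64 and -0.64, so that its knockout arrays lay below the reference and its wild type arrays above.

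Of the acylceramide and barrier genes 0 of 23 were higher and 2 were lower, with a median of -0.07. Cldn1, a tight junction claudin, read 3.74, 3.81 and 4.91 against 2.64, 2.27 and 2.54, a fall of 1.67 (SE 0.32, adjusted p = 0.0392, limma). Alox8, a lipoxygenase of mouse epidermis, was not well above background on the knockout arrays and was at least 2.99-fold lower (limma adjusted p = 0.0227). Alox8 too entered the test through the wild type arrays alone. Nipal4, an ichthyosis gene, differed by 0.91 (adjusted p = 0.0680) and the cholesterol exporter Abca1 by 0.79 (adjusted p = 0.0575), both short of the threshold and both named after their values were seen. Of the fatty acid genes 0 of 33 were higher and 2 were lower, Scd3 and Slc27a1, with a median of -0.03. Slc27a1, a fatty acid transporter, fell by 1.07 (adjusted p = 0.0167), though Cy5 alone gave -0.63.

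Of the neutral lipid genes 0 of 20 were higher and 3 were lower, with a median of -0.28. Mboat2, a lysophospholipid acyltransferase, read 5.22, 5.67 and 5.14 against 3.91, 2.91 and 2.76, a fall of 2.15 (SE 0.32, adjusted p = 0.0226, limma). Gpam, which starts glycerolipid synthesis in mitochondria, fell by 1.23 (adjusted p = 0.0248). Mogat1, a monoacylglycerol acyltransferase, fell by 0.78 (adjusted p = 0.0411), but Cy5 alone gave -0.15 and the reference channel differed by 0.68. Of the 22 regulators 0 passed in limma, 5 had an unadjusted p under 0.05, and the median was -0.18. Hnf4a differed by -0.66 (adjusted p = 0.0622) and Cebpa by -0.82 (adjusted p = 0.0853). Srebf1, which drives fatty acid synthesis and desaturase genes, differed by -0.69 (adjusted p = 0.0928) and is named after its value was seen.

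**Figure D4:**
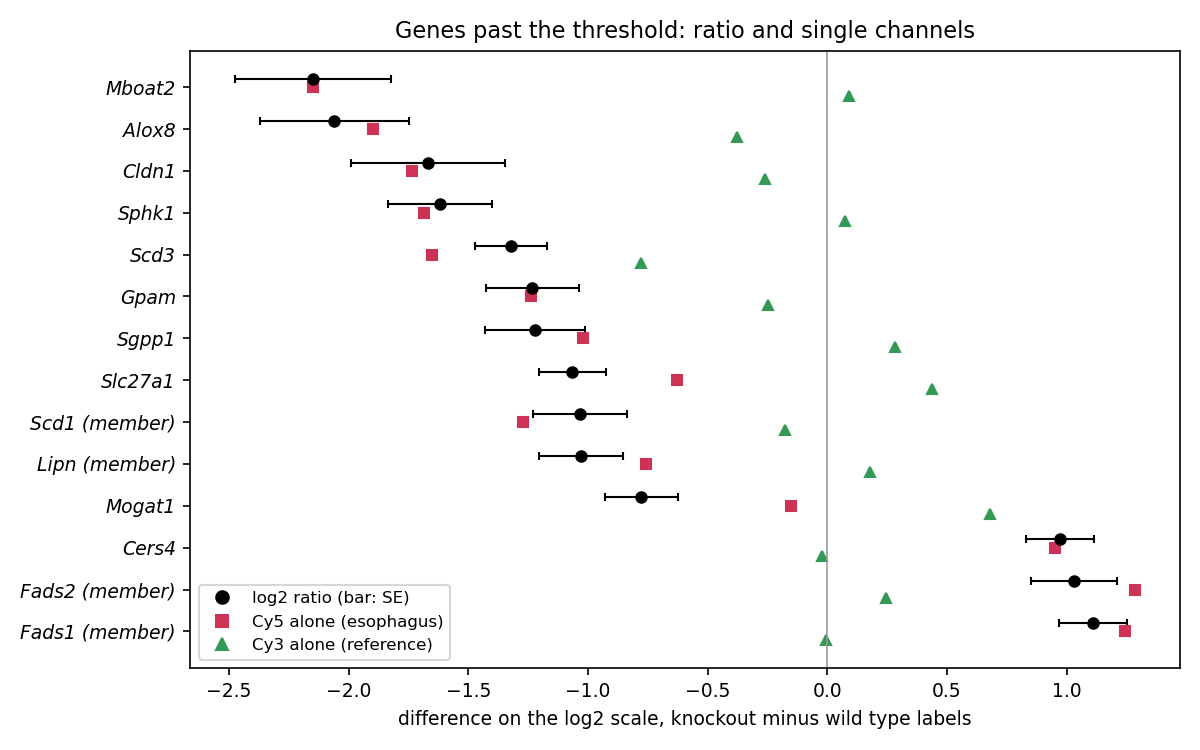
The 14 members and other lipid genes past the threshold, with the difference in log2 ratio and its SE (black), the difference in the esophagus channel alone (red squares) and in the reference channel alone (green triangles), all knockout minus wild type labels. For most genes the esophagus channel carries the difference; for Mogat1 the reference channel differs by 0.68 and the esophagus channel by -0.15.

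Markers of the cells in the tissue were read on the same arrays. The 10 squamous markers, among them Krt5, Krt4 and Krt13, were all tested with none called, and their mean log2 ratio per array was 5.29 to 5.91 on wild type arrays and 5.45 to 5.83 on knockout arrays. With Cy5 alone Krt5, Krt4 and Krt13 differed by 0.23, 0.14 and 0.04. Cy5 alone gave -1.44 for Krt14 and 1.12 for Krt15, and their reference channels differed by -1.52 and 0.79. The epidermis-type cornification markers, 8 of 9 tested, had means of 5.69 to 6.26 against 3.67 to 4.68, with no overlap, and 2 of them, Krt1 and Flg2, were lower. Flg2 and Krt2 were not well above background on the knockout arrays, so only a bound holds for Flg2, at least 10.3-fold lower. Krt1 differed by -5.28 and Krt10 by -2.31, while Lor differed by -0.08 and Casp14, Hrnr, Flg and Krt2 by -0.78 to -0.47. Cy5 alone gave -9.08 for Krt1, -5.93 for Krt10, -4.87 for Flg and -2.28 for Casp14. The reference channel of these probes also differed, by -3.37, -3.09, -3.72 and -1.25. For Hrnr, Krt2 and Lor, Cy5 alone gave -1.40, -0.76 and 0.10. The mean of this list was lower, as were Lipn, Scd1 and Abca12, and the part of these markers in those differences was not tested. Macrophage and dendritic cell markers had means of 0.36 to 1.14 against -0.77 to 0.13, with Cd207 and Itgax lower. Cd207, Itgax and H2-Aa differed by -3.35, -1.63 and -1.33, H2-Aa short of the threshold. The groups overlapped for Adgre1 (-0.70), Csf1r (-0.67), Lyz2 (-0.33), Cd68 (-0.13) and Cd14 (0.18). Adipocyte markers, 7 of 10 tested, had means of 1.17 to 1.88 against 1.47 to 2.09 with none called, and Adipoq, Cfd and Aqp7 were not tested for lack of signal. Of the 7 sebocyte markers 3 were tested, Krt79 higher and Scd3 lower, while Mc5r, Dgat2l6 and Far2 were below background. Endothelial markers, all 7 tested with none called, had means of 2.24 to 2.63 against 2.73 to 3.07, with no overlap. Kdr, Tek, Emcn and Vwf differed by 0.41 to 0.96, but Pecam1 by -0.01 and Cdh5 by -0.06. Cldn5 differed by 1.06, though Cy5 alone gave 0.05 and the reference channel -1.05. The mean of this list was higher, as were Fads1 and Fads2, and the part of these markers in those differences was not tested. Smooth muscle markers, all 8 tested with none called, had means of 1.56 to 2.77 against 2.24 to 2.82, and fibroblast markers, all 7 tested with none called, -0.20 to 1.27 against -0.16 to 1.37. Liver and stomach markers, 5 of 8 tested with none called, had means of 0.71 to 1.13 against 0.80 to 0.81. Skeletal muscle markers had means of 3.25 to 5.55 against 4.74 to 5.69, with Myh2 higher, so the RNA was not of epithelium alone.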

How the data were processed

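Linear intensity values, per the file headers, come from Agilent Feature Extraction 10.7.3.1, and the submitters' processing notes name version 9.1. The authors' files also give a log10 ratio of Cy5 over Cy3, and the authors' deposited series matrix holds log2 values, which are log2 of Cy3 over Cy5 (correlation -0.993 to -0.996 with the scanner ratio), so their sign was turned. Their centring is not stated in those sources. Flags for spots above background and outliers are those of the deposited files.

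Intensities were corrected with normexp (offset 50) and loess, control spots at weight 0, and outlier spots were set to missing. Spots of a probe were averaged to 41174 probes, of which 30505 were tested. Probe positions are mm9. Names came from RefSeq (GRCm38.p6): 26918 probes matched by accession, 5899 by name, and 8357 kept the file's name. A gene is its tested probe with the highest mean intensity. Group differences came from limma 3.58.1 under R 4.3.3 (lmFit, eBayes, two-sided) without covariate, adjusted by Benjamini-Hochberg over tested probes at 0.05. Simulated data were used to test the procedure. Errors are SDs over 3 arrays, moderated SEs and 95% intervals. The smallest p of an exact permutation test at this size is 0.1. The labels call the samples biological replicates and no more, so that the spread behind a p-value may be technical in part.

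Same-numbered arrays of the groups deviated together (correlations 0.14, 0.49 and 0.32 over genes), so a fit with replicate number as a block was added; other pairs lay between -0.47 and 0.16. On each slide numbers 1, 2 and 3 also shared positions 2, 3 and 4, which cannot be told apart from pairing.

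The members and gene lists were chosen with earlier results of these data known. All members are named; values per array are given for members that passed, with an unadjusted p under 0.05, with the 2 smallest p in a role, with the 2 highest Cy5 signals or below background in a group. Of the other lists, genes past the threshold and the 2 smallest p in a list were named; others are said to be named after their values were seen.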

Additional observations from a re-analysis of the deposited data

How the results depend on the processing

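The 34 member differences were recomputed under 19 other settings, giving 644 values. Of these, 51 crossed the threshold, 66 turned sign with neither value past it, and 1 reversed past it: Alox12b, at 1.05 with Cy5 alone. No member passed in every setting. The 4 members past the threshold became 2 with median centring (1 higher, 1 lower), 15 with Cy5 alone (4 higher, 11 lower), 7 with array weights (2 higher, 5 lower) and 5 with the replicate block. Lower members numbered 1 in the deposited log ratios, in the series matrix values and among probes well above background on all 6 arrays, each beside 2 higher. Over all genes, 1007 calls became 571 in the deposited log ratios, 561 in the series matrix, 120 with median centring, 5995 with Cy5 alone, 558 among probes above background on all 6 arrays, 2469 with array weights and 1707 with the replicate block. The 10 other lipid genes became 5 in the deposited log ratios and in the series matrix, 1 with median centring, 37 with Cy5 alone and 21 with array weights. With arrays left out, counts ran from 0 to 4 members (0 to 2 higher, 0 to 2 lower), 0 to 823 genes and 0 to 9 other lipid genes. Without replicate 1 of both groups limma called 0 genes, beside 3495 at an unadjusted p under 0.05, 10 of them members and 33 other lipid genes; the fits leaving out arrays have fewer samples. The causes of the other changes were not tested. The replicate block changed no other member's call. Dim probes such as that of Lipn have only a bound, and with 3 arrays per group a missed threshold does not show equal levels.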
